A study of Mus musculus with 23 samples.

Results

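The HSP70, HSP90 and J-domain chaperones were followed through 2 experiments on unloaded mouse muscle. They were taken as every probe set whose gene symbol in the platform annotation table is exactly Hspa1a, Hspa1b, Hspa8, Hsph1, Hsp90aa1, Hsp90ab1, Dnajb1, Dnajb4, Dnaja4 or Hsf1. Of 22626 probe sets, 20 carried one of these symbols, and they covered 8 of the 10 genes. Hsp90ab1, the constitutive cytosolic HSP90, and Hsf1, the heat shock transcription factor, are named on no probe set of that table and were not analysed here.

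An HSP70 protein holds unfolded stretches of a client protein in a cycle driven by ATP. J-domain proteins such as Dnajb1, Dnajb4 and Dnaja4 bring clients to HSP70 and start that cycle, and Hsph1, an HSP110, resets it by nucleotide exchange. HSP90 takes over clients that are partly folded. Hspa1a and Hspa1b are the stress-inducible HSP70 genes, whereas Hspa8 is the constitutive HSP70 of the same compartment. Under heat or other proteotoxic stress, Hsf1 binds inverted repeats of the unit GAA upstream of the inducible genes, and in skeletal muscle HSP70 is known to rise after heat and strenuous contraction.

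Every sample was hindlimb muscle RNA from C57BL/6J females, 77 days old, and the labels name no genetic change. Spaceflight samples (n = 4) were gastrocnemius muscle of mice flown for 11 days and 19 hours. Their reference, ground AEM (n = 4), was gastrocnemius of mice kept on earth for the same time in an animal enclosure module, the housing unit used in flight. In the second experiment, reloaded samples (n = 5) were calf muscle of mice suspended by the tail for 12 days, which takes the weight off the hindlimbs, after which they bore weight again for 3.5 hours. Suspension samples (n = 5) were calf muscle after the 12 days without reloading, and control samples (n = 5) were calf muscle of mice with no treatment over 12 days. Replicates are named by the numbers in the sample titles. Whether each came from its own animal is not stated, so the p-values cover only the variation among these samples, part of which may be technical. In their free-text descriptions, spaceflight and ground AEM are swapped against the series design, the titles and the source names, which were followed here. Should the descriptions hold instead, each difference between spaceflight and ground AEM below would change sign. A flight effect set against a calf effect would change in size, and not always in sign. For Hspa1b on 1427127_x_at, flight minus reloaded-versus-control would be -2.26. The counts called after this exchange are given below.

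Values are the deposited log2 values, and a difference of 1 is a doubling. The interquartile range of an array was 2.75 to 2.91 in the flight experiment and 2.20 to 2.46 in the calf experiment, and for that reason no level is set against one from the other experiment. The mean level of 5 skeletal muscle markers (Acta1, Ckm, Mb, Ttn and Des) lay between 13.2 and 13.3 on each of the 23 arrays. Suspension replicate 8 stood apart, with the narrowest interquartile range (2.20) and a median correlation of 0.985 with its group. Each calf result below that ends without suspension replicates 8 and 9 is given with its value. A probe set was tested if 4 or more arrays exceeded 5.83, the 40th percentile of all values. This kept 14849 probe sets and 19 of the 20 chaperone probe sets. A probe set was called at a limma adjusted p under 0.05 (Benjamini-Hochberg over the 14849). In bulk muscle, fewer cells of a type and less RNA per cell cannot be told apart.

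The sequences before the start sites of the inducible genes are shown because Hspa1a, Hspa1b, Dnajb4 and Dnaja4 were called higher on reloading, and Hsph1, which was not, for comparison. RefSeq promoter sequence (GRCm38.p6) matched 6 of the 10 genes, with 10 windows that run from 250 bases before a start site to 50 after it. Hspa8, Hsp90aa1, Hsp90ab1 and Hsf1 had no window. Hsp90aa1, also called higher on reloading, and the constitutive genes were therefore not searched. Windows were searched on both strands for the letters GAANNTTC or TTCNNGAA (capitals in the lines below), which form a pair of facing units, and for GAANNTTCNNGAA or TTCNNGAANNTTC, which add another unit and overlap the shorter motif. The 250 bases before the start site are printed, 5′ to 3′ along the gene's own strand.
Hspa1a, chr17:34972157-34972406, minus strand: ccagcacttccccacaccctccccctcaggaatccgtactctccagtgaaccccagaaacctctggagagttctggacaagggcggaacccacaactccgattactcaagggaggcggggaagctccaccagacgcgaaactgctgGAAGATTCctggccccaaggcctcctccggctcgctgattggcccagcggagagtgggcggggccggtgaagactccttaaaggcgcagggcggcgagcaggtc
Hspa1b, chr17:34959239-34959488, minus strand: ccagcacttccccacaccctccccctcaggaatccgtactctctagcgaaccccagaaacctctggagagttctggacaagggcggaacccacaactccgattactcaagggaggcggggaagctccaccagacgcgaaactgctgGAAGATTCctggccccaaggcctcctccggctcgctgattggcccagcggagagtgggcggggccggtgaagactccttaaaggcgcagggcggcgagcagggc
Dnajb4, chr3:152193846-152194095, minus strand: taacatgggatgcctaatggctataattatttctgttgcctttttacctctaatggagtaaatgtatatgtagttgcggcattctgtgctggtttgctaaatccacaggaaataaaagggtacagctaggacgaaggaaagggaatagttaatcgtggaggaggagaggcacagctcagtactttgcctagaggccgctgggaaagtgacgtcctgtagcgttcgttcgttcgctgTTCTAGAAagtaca
Dnaja4, chr9:54699309-54699558, plus strand: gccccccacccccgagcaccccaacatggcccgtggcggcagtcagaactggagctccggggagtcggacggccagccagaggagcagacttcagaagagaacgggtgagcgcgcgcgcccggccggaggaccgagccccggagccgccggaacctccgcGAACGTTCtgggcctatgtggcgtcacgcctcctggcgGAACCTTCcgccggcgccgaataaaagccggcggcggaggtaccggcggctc
Hsph1, chr5:149636316-149636565, minus strand: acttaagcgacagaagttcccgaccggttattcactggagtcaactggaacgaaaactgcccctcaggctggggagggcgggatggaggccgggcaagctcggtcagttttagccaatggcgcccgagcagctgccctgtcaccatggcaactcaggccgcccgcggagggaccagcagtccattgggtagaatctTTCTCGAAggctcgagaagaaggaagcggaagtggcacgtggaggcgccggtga
Hsph1, chr5:149636279-149636308, minus strand, around its 3-unit match just after the start site: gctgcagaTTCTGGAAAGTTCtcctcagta

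The Hspa1a and Hspa1b windows each held 1 match, whose first base lies 104 bases before the start site. Over all 300 bases they differed at 4 positions (98.7% identical), and at 3 of the 250 printed above. The printed Dnajb4 window held 1 match, starting 14 bases before the start site, and the printed Dnaja4 window held 2, starting 90 and 52 bases before it. The other Dnajb4 window and the other Dnaja4 window held none. The Hsph1 windows overlap each other and held the same 3 matches of the shorter motif. Of these, 2 overlap and together form the 3-unit match, the only one found in the 10 windows. Both Dnajb1 windows held none. Over the 32851 windows of the promoter table, 15.1% held the shorter motif and 0.603% the longer one. A match is a description of the letters and says nothing of binding.

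After 3.5 hours of reloading, the inducible HSP70 genes rose most. Hspa1b was 8.03-fold higher and Hspa1a 6.71-fold higher in reloaded than in suspension muscle. The J-domain genes Dnajb4 and Dnaja4 rose 1.55-fold to 1.90-fold, and Hsp90aa1, the inducible cytosolic HSP90, rose 1.52-fold and 1.53-fold on 2 of its 3 probe sets. Hspa8, Hsph1 and Dnajb1 did not pass the test on any probe set. Of the 19 probe sets tested, 11 were called higher and 0 lower, against 0.559% called higher over all 14849. Their median difference was 0.63, beside -0.01 over all probe sets tested. On 10 probe sets every reloaded array lay above every suspension array, as on 0.842% of all probe sets. One of the 11, 1427126_at of Hspa1b, passed the filter through the reloaded arrays and had to differ. Without it, a count added after seeing the data, 10 of 18 were called and 9 did not overlap. All 11 called were among the 16 inducible probe sets, and without 1427126_at it was 10 of 15. The constitutive forms were tested by 1 gene only, Hspa8, so the count sets the inducible genes against that gene. Of the Hspa8 probe sets, 0 of 3 were called, although they differed by 0.48 to 0.83. Each reached an unadjusted p under 0.05, as did 9.34% of all probe sets.

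Hspa1b, read by probe set 1427127_x_at, had log2 values of 8.99, 10.36, 8.82, 10.61 and 10.25 in reloaded muscle (replicates 14, 15, 16, 18 and 33), against 6.60, 6.74, 7.08, 6.94 and 6.65 in suspension muscle (replicates 8, 9, 11, 25 and 30) and 7.13, 7.50, 7.19, 6.98 and 6.89 in control muscle (replicates 1, 2, 19, 21 and 22). All 5 reloaded arrays lay above every other calf array, and reloaded replicates 14 and 16 lay below the other reloaded arrays. The difference was 3.01 ± 0.26 (SE) from suspension, with a limma adjusted p of 1.55e-06, and 2.67 ± 0.26 from control, with a limma adjusted p of 2.32e-05. A second probe set, 1452318_a_at, gave 2.39 ± 0.26 from suspension and 2.19 ± 0.26 from control. The third, 1427126_at, gave 3.28 ± 0.27 and 2.81 ± 0.27. It exceeded the filter's threshold on 6 arrays, 5 of them reloaded.

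Hspa1a, read by its single probe set 1452388_at, had log2 values of 9.10, 10.14, 8.09, 10.26 and 9.61 in reloaded muscle, against 6.75, 6.78, 6.74, 7.00 and 6.20 in suspension muscle and 6.84, 7.32, 6.66, 7.15 and 6.96 in control muscle. The order of the reloaded arrays was that of Hspa1b, with replicates 18, 15 and 33 highest, and the groups did not overlap. The difference was 2.75 ± 0.28 from suspension (limma adjusted p = 1.29e-05) and 2.45 ± 0.28 from control (limma adjusted p = 0.000126). Hspa1a and Hspa1b are near-identical neighbouring genes, and the x in 1427127_x_at marks probes shared with other transcripts. How the signal splits between them is therefore uncertain.

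Hspa8, the constitutive partner, had log2 values on 1420623_x_at of 11.66, 11.79, 11.22, 11.75 and 11.52 in reloaded muscle, against 10.13, 11.07, 11.43, 11.42 and 11.28 in suspension muscle and 11.40, 11.40, 11.65, 11.60 and 11.45 in control muscle. The groups overlapped, and suspension replicate 8 lay 0.94 below the next array of its group. The reloaded minus suspension difference was 0.52 ± 0.18 (limma adjusted p = 0.362) on this probe set, 0.48 ± 0.14 (limma adjusted p = 0.216) on 1455789_x_at and 0.83 ± 0.23 (limma adjusted p = 0.173) on 1420622_a_at. The 95% intervals of the 3 ran from 0.15 to 1.30, so a rise within that range was not told apart from no change after adjustment. Without suspension replicate 30 alone, 1420622_a_at passed (1.00, limma adjusted p = 0.0406). Against control the differences were 0.09, 0.21 and 0.46, none called. The fourth Hspa8 probe set, 1431182_at, lay below the filter, with group means of 5.34 in reloaded, 5.00 in suspension and 5.00 in control muscle.

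**Figure D1:**
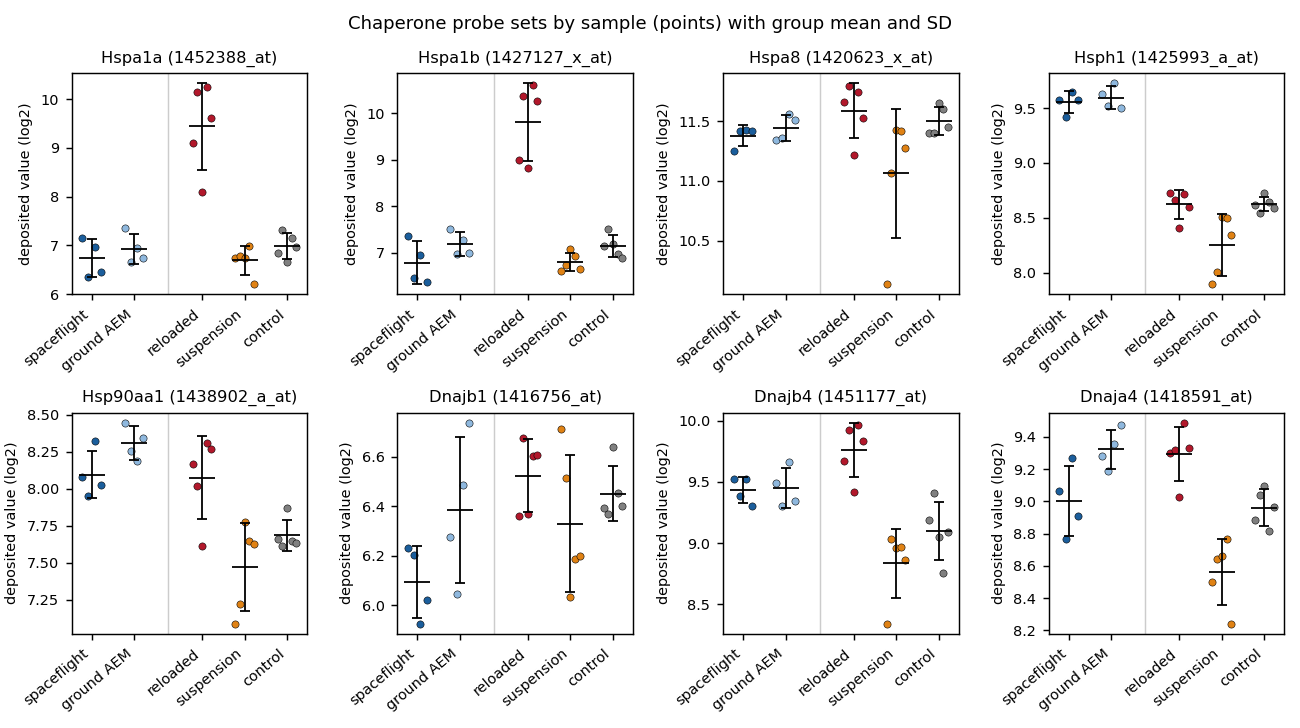
Deposited log2 value (vertical axis) of each sample for the probe set with the highest mean of each of the 8 genes. Points are samples, bars are the group mean ± SD, and the vertical line parts the gastrocnemius from the calf experiment. The reloaded points of Hspa1a and Hspa1b lie from 8.09 to 10.61, above all other calf points, while those of Hspa8 overlap suspension and control.

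The contrast between inducible and constitutive HSP70 was taken within each array, as the Hspa1b value (1427127_x_at) minus the Hspa8 value (1420623_x_at). Only its change between groups is read, since the levels of different probes cannot be compared. Both probe sets carry the x that marks probes shared with other transcripts, as does 1455789_x_at of Hspa8. The difference was -2.67, -1.43, -2.40, -1.14 and -1.27 on the reloaded arrays, against -3.53, -4.33, -4.35, -4.48 and -4.63 on the suspension arrays and -4.27, -3.90, -4.46, -4.63 and -4.56 on the control arrays. No reloaded array overlapped either group. It averaged -1.78 ± 0.70 in reloaded, against -4.27 ± 0.43 in suspension and -4.36 ± 0.29 in control muscle (SD, n = 5 each). The shift was 2.48 from suspension and 2.58 from control. Each gave an exact permutation p of 0.00794, two-sided, the smallest this design allows, and 0.0159 after Benjamini-Hochberg adjustment over the 4 tests of this kind. Suspension and control arrays differed by 0.10 (exact permutation p = 0.683).

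The same subtraction was added after seeing the data for the other 6 inducible genes, as a family of 24 exact permutation tests, of which none passed an adjusted p of 0.05. Even the smallest p that 5 arrays a group allow, 0.00794, adjusted to 0.0635 in this family. No conclusion is therefore drawn from the lack of calls. Hspa1a minus Hspa8 was 2.22 higher in reloaded than in suspension and 2.36 higher than in control muscle (exact p = 0.00794 each, adjusted p = 0.0635). The reloaded arrays overlapped neither group. Dnajb4 minus Hspa8 was 0.57 higher in reloaded than in control muscle (exact p = 0.00794, adjusted p = 0.0635) with no overlap, and 0.40 higher than in suspension muscle (exact p = 0.0397, adjusted p = 0.159). Dnaja4 minus Hspa8 was 0.21 higher in reloaded than in suspension muscle, where the groups overlapped (exact p = 0.429). It was -1.63 on suspension replicate 8 and -3.03 to -2.43 on the other suspension arrays. Against control, Dnaja4 minus Hspa8 was 0.25 higher and Hsp90aa1 minus Hspa8 0.30 higher (exact p = 0.0159, adjusted p = 0.0762 each), with overlap. Hsp90aa1 minus Hspa8 was 0.08 higher than in suspension muscle (exact p = 0.627). For Hsph1 and Dnajb1 the shifts from suspension and control ran from -0.33 to -0.02 (exact p from 0.183 to 0.889).

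**Figure D2:**
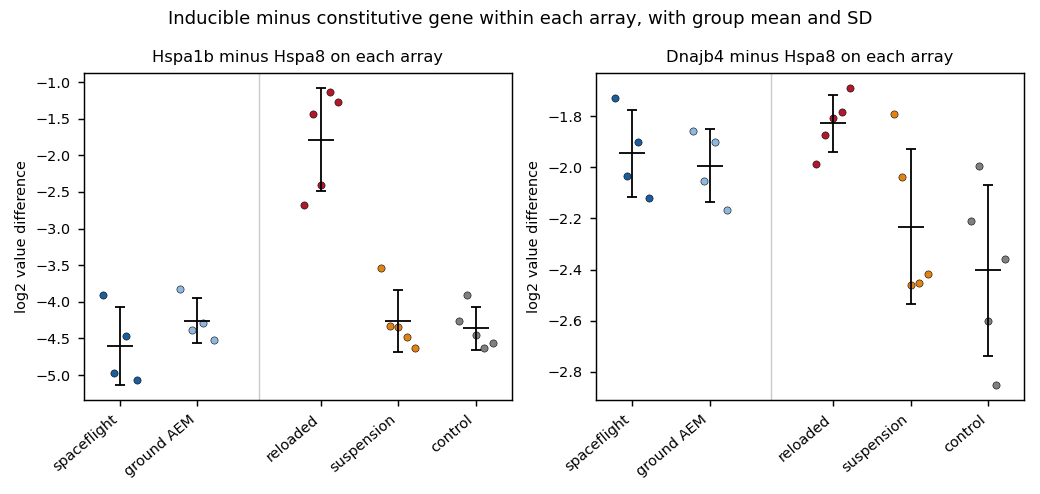
Within-array difference in log2 value (vertical axis) between an inducible gene and Hspa8, for Hspa1b on the left and Dnajb4 on the right. Points are arrays and bars are the group mean ± SD. For Hspa1b the 5 reloaded arrays lie from -2.67 to -1.14 and the suspension and control arrays from -4.63 to -3.53.

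Among the J-domain cochaperones, Dnajb4 had log2 values on 1451177_at of 9.67, 9.92, 9.41, 9.96 and 9.83 in reloaded muscle, against 8.34, 9.03, 8.96, 8.97 and 8.86 in suspension muscle and 9.19, 9.41, 9.05, 8.75 and 9.09 in control muscle. Every reloaded array lay above every suspension array, and the lowest reloaded array, replicate 16, lay just above the highest control array, replicate 2. The difference was 0.93 ± 0.14 from suspension (limma adjusted p = 0.000922) and 0.66 ± 0.14 from control (limma adjusted p = 0.0349). The call against control ended in 8 of the 10 fits that left out 1 array, with an adjusted p of up to 0.127. It held without control replicate 2 and without reloaded replicate 16. The second probe set, 1431734_a_at, rose by 0.76 ± 0.12 from suspension (limma adjusted p = 0.00235) and differed from control by 0.39 ± 0.12 (limma adjusted p = 0.349).

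Dnaja4, a type I J-domain protein, had log2 values on 1418591_at of 9.30, 9.32, 9.03, 9.49 and 9.33 in reloaded muscle, against 8.50, 8.64, 8.66, 8.77 and 8.24 in suspension muscle and 8.88, 9.04, 9.10, 8.82 and 8.97 in control muscle. Reloaded arrays lay above all suspension arrays, and reloaded replicate 16 fell within the control range. The 3 Dnaja4 probe sets rose from suspension by 0.73 ± 0.10, 0.64 ± 0.11 and 0.63 ± 0.10, with limma adjusted p-values of 0.000381, 0.00401 and 0.00284. Against control they differed by 0.33, 0.26 and 0.31, none called. Dnajb1, the main partner of inducible HSP70 in the cytosol, differed between reloaded and suspension muscle by 0.19 ± 0.11 and 0.23 ± 0.10 on its 2 probe sets, with limma adjusted p-values of 0.594 and 0.507.

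Hsp90aa1 had log2 values on 1438902_a_at of 8.17, 8.02, 7.62, 8.31 and 8.27 in reloaded muscle, against 7.09, 7.22, 7.78, 7.65 and 7.63 in suspension muscle and 7.66, 7.61, 7.87, 7.65 and 7.63 in control muscle. Reloaded replicate 16 fell among the suspension arrays, and suspension replicates 8 and 9 were the lowest. The reloaded minus suspension difference was 0.60 ± 0.13 (limma adjusted p = 0.0414), and 0.62 ± 0.14 on 1426645_at (limma adjusted p = 0.0481). These calls are the least firm of the 11. They ended in 7 and 8 of the 10 fits that left out 1 array, and without suspension replicates 8 and 9 together the values were 0.39 (limma adjusted p = 0.429) and 0.56 (limma adjusted p = 0.323). The third probe set, 1437497_a_at, differed by 0.57 ± 0.15 (limma adjusted p = 0.118), though its groups did not overlap. Against control no Hsp90aa1 probe set was called, at 0.39, 0.26 and 0.41.

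Hsph1, the HSP110 exchange factor whose windows held the only 3-unit match, had log2 values on 1425993_a_at of 8.72, 8.66, 8.41, 8.71 and 8.60 in reloaded muscle, against 7.89, 8.01, 8.51, 8.50 and 8.34 in suspension muscle and 8.61, 8.55, 8.72, 8.65 and 8.59 in control muscle. The suspension arrays lay below all control arrays, and the reloaded mean of 8.62 ± 0.13 equalled the control mean of 8.62 ± 0.07 (SD, n = 5 each) to 2 decimals. The reloaded minus suspension difference was 0.37 ± 0.11 (limma adjusted p = 0.216), and 0.40 ± 0.18 on 1423566_a_at (limma adjusted p = 0.496).

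Against control, 5 of the 19 probe sets were called higher in reloaded muscle and 0 lower, beside 0.269% called higher over all 14849. Without 1427126_at of Hspa1b it was 4 of 18. The 5 were those of Hspa1a, Hspa1b and Dnajb4 named above, and the same 5 were the ones whose groups did not overlap, which 1.04% of all probe sets reached in that direction. The median difference was 0.33, beside -0.01 over all probe sets tested. The comparisons with suspension and with control share the 5 reloaded arrays.

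**Figure D3:**
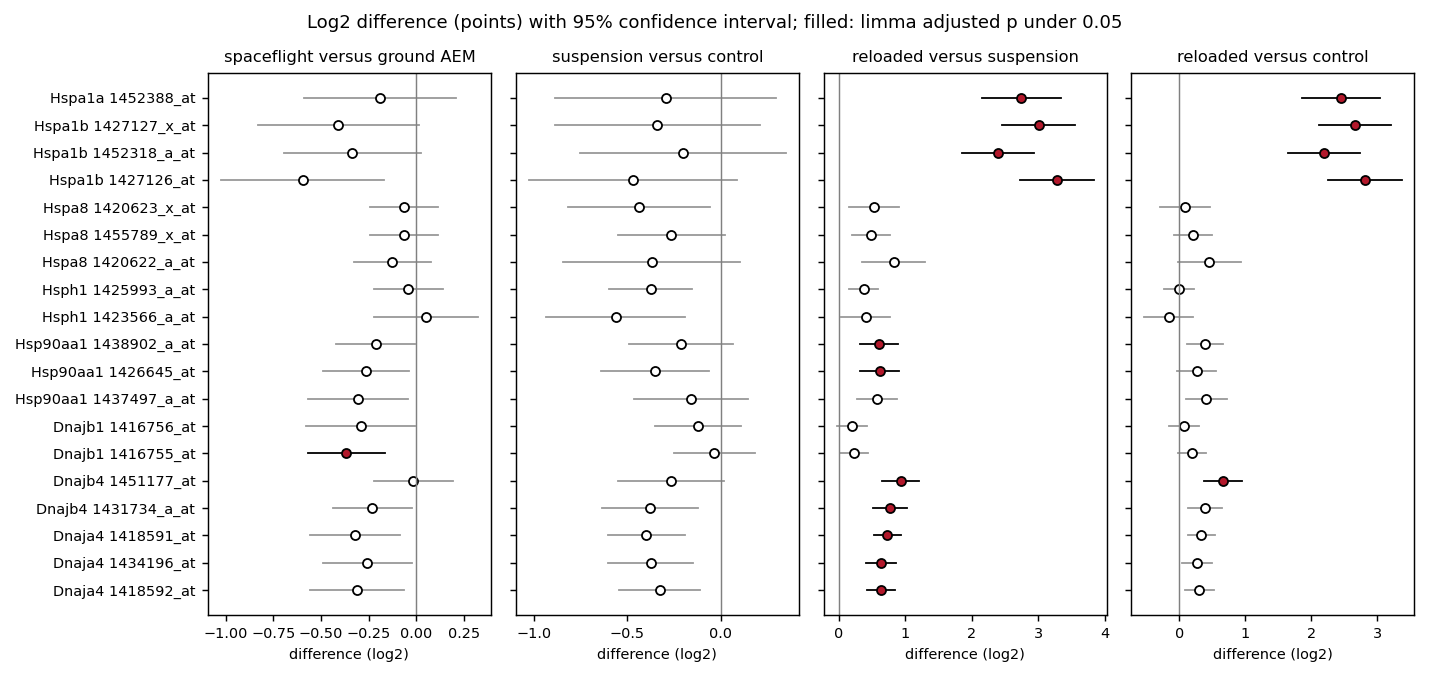
Log2 difference (horizontal axis, with its own scale in each panel) of the 19 tested probe sets in the 4 comparisons of groups. Points are the limma estimates, bars their 95% confidence intervals, and filled points passed an adjusted p of 0.05. There are 1 filled point for spaceflight versus ground AEM, 0 for suspension versus control, 11 for reloaded versus suspension and 5 for reloaded versus control.

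The 5 reloaded arrays did not rise alike. Replicate 16 was the lowest reloaded array on 17 of the 19 probe sets and replicate 14 on the other 2. Replicate 18 was the highest on 9, replicate 15 on 6 and replicate 14 on 4. Over the 19 probe sets, the median distance above the suspension mean was 0.87 for replicate 18, 0.76 for replicate 15, 0.74 for replicate 14, 0.59 for replicate 33 and 0.30 for replicate 16. Replicate 14 was low for Hspa1a and Hspa1b but highest on 1437497_a_at of Hsp90aa1 (7.94) and on both Hsph1 probe sets (8.72 and 7.06). Over all 14849 probe sets, the median distance of replicate 16 from the rest of its group was -0.03, beside -0.43 over the chaperones. Without replicate 16, 12 probe sets were called against suspension. The mean level of 7 slow fibre markers ranged from 11.3 to 12.0 over the reloaded arrays, 11.5 to 11.8 over the suspension arrays and 11.9 to 12.1 over the control arrays. In reloaded versus suspension muscle, 1 of 5 tendon markers was called higher, the only call on the marker lists. The 3 Schwann cell markers tested had a median difference of -0.56, with 0 called. The part of these markers in the chaperone values was not tested.

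**Figure D4:**
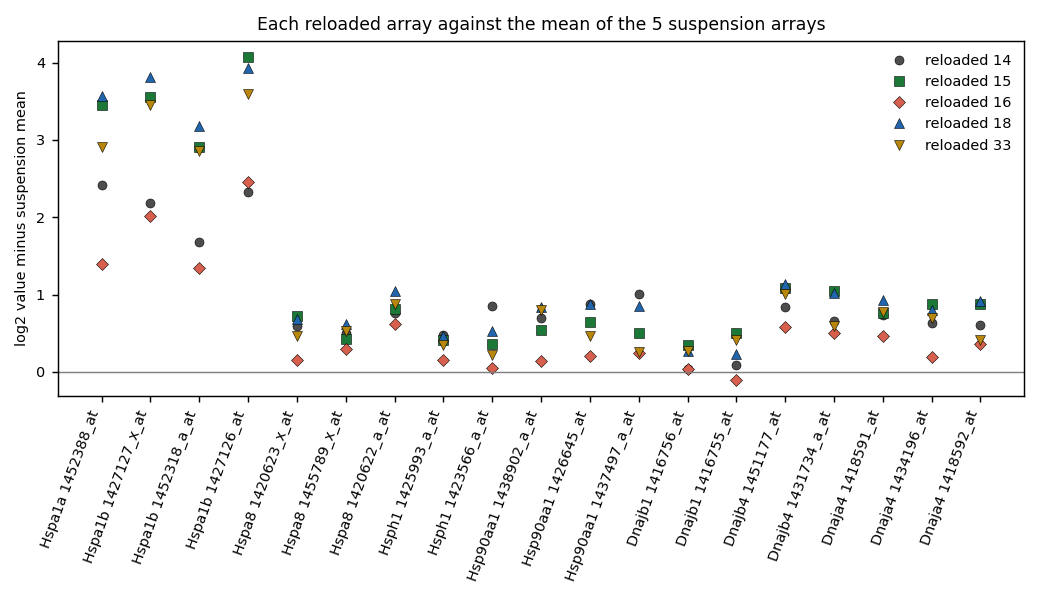
Log2 value of each reloaded array minus the mean of the 5 suspension arrays (vertical axis), for each of the 19 tested probe sets. Each symbol is 1 reloaded replicate. Replicate 16 is lowest on 17 of the 19 probe sets, and the spread is widest for Hspa1a and Hspa1b.

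After 12 days of suspension without reloading, no chaperone probe set passed the test, beside 0.377% called over all 14849. All 19 differences from control were below 0, with a median of -0.34, beside -0.00 over all probe sets tested. At an unadjusted p under 0.05 there were 8, beside 8.42% of all probe sets. On 5 probe sets the suspension arrays lay below all control arrays, a pattern that 1.21% of all probe sets showed. These were the 3 of Dnaja4, 1431734_a_at of Dnajb4 and 1425993_a_at of Hsph1. The nearest to the threshold was Dnaja4 on 1418591_at, which averaged 8.56 ± 0.20 in suspension and 8.96 ± 0.11 in control muscle (SD, n = 5 each), a difference of -0.40 ± 0.10 (limma adjusted p = 0.103). Hsph1 differed by -0.38 ± 0.11 and -0.56 ± 0.18, Hspa8 by -0.26 to -0.44, and Hspa1b by -0.20 to -0.47. Suspension replicate 8 was the lowest of its group on 11 of the 19 probe sets, with a median distance of -0.29 from the others, beside -0.02 over all probe sets tested. Without suspension replicates 8 and 9, 1455789_x_at and 1420622_a_at of Hspa8 turned to 0.02 and 0.05. Markers of other cells moved in the same comparison. The mean of the Schwann cell markers was 7.66 to 8.16 in suspension and 6.91 to 7.15 in control muscle, with 1 of 3 tested called higher (Mbp, by 1.87). Of 7 slow fibre markers 1 was called lower (Myl3, -0.47), and of 5 tendon markers 1 (Chad, -0.57). Their part in the chaperone values was not tested.

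In spaceflight muscle, 1 of the 19 probe sets was called lower than in ground AEM muscle and 0 higher. That is 5.26%, beside 6.36% called in either direction over all 14849 (3.11% lower), so the share is near the background. The called probe set was Dnajb1 on 1416755_at. It had log2 values of 6.24, 6.09, 6.17 and 6.02 in spaceflight muscle (replicates 8, 9, 10 and 11), against 6.58, 6.26, 6.53 and 6.61 in ground AEM muscle (replicates 1 to 4). The highest spaceflight array lay just below the lowest ground AEM array, replicate 2, and it alone of the 19 tested had groups that did not overlap, which 6.67% of all probe sets showed in that direction. The difference was -0.37 ± 0.09 (limma adjusted p = 0.0357). The call ended without ground AEM replicate 1, 3 or 4 or spaceflight replicate 9, 10 or 11, with an adjusted p of up to 0.0977. The second Dnajb1 probe set, 1416756_at, differed by -0.29 ± 0.13 (limma adjusted p = 0.234).

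The other 18 probe sets were not called in the flight comparison, and 17 of them lay below 0. The median of all 19 was -0.26, beside -0.02 over all probe sets tested, and 10 had an unadjusted p under 0.05, beside 20.6% of all probe sets. Hspa1b on 1427127_x_at had log2 values of 7.35, 6.45, 6.95 and 6.36 in spaceflight muscle, against 7.52, 6.97, 7.28 and 6.98 in ground AEM muscle. Its groups overlapped, and the difference was -0.41 ± 0.20 (limma adjusted p = 0.259). The low-level probe set 1427126_at differed by -0.60 ± 0.20 (limma adjusted p = 0.0998) and passed without spaceflight replicate 8 (-0.78, limma adjusted p = 0.0235). The 3 Dnaja4 probe sets differed by -0.32, -0.26 and -0.31, of which the first 2 passed without spaceflight replicate 10 (limma adjusted p = 0.0452 each). Hspa8 differed by -0.06, -0.06 and -0.13 on its 3 tested probe sets and Hsph1 by -0.04 and 0.05. The Hspa8 probe set below the filter, 1431182_at, averaged 4.83 ± 0.16 in spaceflight and 5.36 ± 0.31 in ground AEM muscle (SD, n = 4 each). Its groups did not overlap, and in a fit without the filter the difference was -0.53 ± 0.14 (limma adjusted p = 0.0522). Hspa1b minus Hspa8 averaged -4.60 ± 0.53 in spaceflight and -4.26 ± 0.30 in ground AEM muscle (SD, n = 4 each), a difference of -0.34 with an exact permutation p of 0.257 (adjusted p = 0.343). With 4 arrays a group, the smallest p this test allows is 0.0286. Adipocyte markers moved in the same comparison, with 5 of 6 tested called higher (Adipoq by 1.44) and a mean marker level of 8.18 to 8.57 in spaceflight, against 7.29 to 7.53 in ground AEM muscle. Of 7 slow fibre, 5 endothelial and 1 erythroid marker tested, 1 each was called lower. The 5 tendon markers had a median difference of -0.51, with 0 called. What part all these markers have in the chaperone values was not tested.

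Whether flight and suspension moved the chaperones differently was tested over all 23 arrays, with each effect taken within its own experiment. The experiments differ in the muscle taken and in the interquartile range of the arrays. How far this alters the sizes of the effects was not tested. No probe set passed for the flight effect minus the suspension effect, beside 1.58% of all 14849, and 3 had an unadjusted p under 0.05, beside 12.8% of all probe sets. The differences of the effects ran from -0.33 to 0.61. The intervals are wide: for Hspa1b on 1427127_x_at the difference was -0.07, with a 95% interval of -0.85 to 0.71. Against the effect of reloading relative to control, 9 probe sets passed with the flight effect lower and 0 higher, beside 1.66% lower over all 14849. Among the 9, 1427126_at of Hspa1b passed the filter through the reloaded arrays and had to differ, so its call adds no support. Hspa1b had a flight effect of -0.41 and a reloaded minus control effect of 2.67, which differed by -3.07 ± 0.38 (limma adjusted p = 2.38e-05). The others were Hspa1a (-2.64), the other Hspa1b probe sets (-2.53 and -3.41), Dnajb1 on 1416755_at (-0.56), both Dnajb4 probe sets (-0.68 and -0.62) and Dnaja4 on 1418591_at and 1418592_at (-0.65 and -0.62). When 1 array was left out, the calls of Hspa1a, Hspa1b and 1418591_at of Dnaja4 ended in 0 of 18 fits. Those of 1451177_at and 1431734_a_at of Dnajb4 ended in 15 and 14, that of Dnajb1 in 10 and that of 1418592_at of Dnaja4 in 6. The count fell to 5 without control replicate 1, reloaded replicate 15 or 18, ground AEM replicate 3 or 4, or spaceflight replicate 9. With spaceflight and ground AEM exchanged, as the free-text descriptions would have it, 5 probe sets passed, those of Hspa1a, Hspa1b and 1451177_at of Dnajb4.

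Other chaperone genes served as the surrounding of the family, each read by the probe set of highest mean. Of 30 other J-domain genes tested of 39 listed, 0 passed in any of the 4 comparisons of groups. Of 16 other HSP70 genes and exchange factors, 0 passed in the calf comparisons, and 2 were lower in spaceflight than in ground AEM muscle, Hspa12b (-0.50 ± 0.10) and Hspa4l (-0.39 ± 0.10). Of 19 HSP90 paralogs and cochaperones, 0 passed in the calf comparisons. In spaceflight, Fkbp5, an HSP90-bound immunophilin induced by glucocorticoids, was higher by 0.84 ± 0.11 and Hsp90b1, the HSP90 of the endoplasmic reticulum, lower by -0.46 ± 0.09. For the same representation, 5.51% of 9133 genes were called in the flight comparison and 0.547% in reloaded versus suspension. The 10 chaperonin subunits gave 0 calls.

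Small heat shock proteins, which hold unfolding proteins without ATP, were the only one of the other chaperone lists with calls in the calf comparisons. Of 6 tested, 3 rose in reloaded versus suspension muscle. Hspb7, found in heart and skeletal muscle, averaged 11.36 ± 0.32 in reloaded and 10.31 ± 0.40 in suspension muscle (SD, n = 5 each), a difference of 1.05 ± 0.16 (limma adjusted p = 0.00159). Hspb1 rose by 0.80 ± 0.11 and Cryab by 0.48 ± 0.09. Hspb7 and Cryab were lower in suspension than in control muscle, by -0.89 ± 0.16 and -0.44 ± 0.09, and Hspb1 alone was called between reloaded and control muscle (0.53 ± 0.11, limma adjusted p = 0.0451).

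The genes outside the family whose values followed Hspa1b most closely over the 15 calf arrays were Enah, an actin regulator, with a Pearson r of 0.950, Xirp1, an actin-binding protein of muscle attachment sites, with 0.949, Atf3, a stress-induced transcription factor, with 0.948, and Ier5, an immediate early gene, with 0.944. They were the 4 highest of 9125 genes searched, and the points fall into a reloaded cluster and the rest, so the values describe a shared difference between groups. Xirp1 averaged 10.98 ± 0.66 in reloaded, against 8.89 ± 0.16 in suspension and 9.44 ± 0.29 in control muscle (SD, n = 5 each). Of the family, Dnajb4 on 1451177_at had 0.913 and Hspa8 on 1420623_x_at 0.493. Over the 8 gastrocnemius arrays the nearest genes were others, Mrps11 (0.947), Zfp639 (0.942), Foxe3 (0.928) and Oxsm (0.918). They too were the 4 highest of 9125 genes searched, here over fewer arrays. Foxe3 averaged 5.77 in spaceflight and 5.85 in ground AEM muscle, and Oxsm 5.72 and 5.81, near the filter's threshold of 5.83.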

How the data were processed

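RNA of 23 muscle samples was hybridised to Affymetrix mouse arrays, per the labels. The authors deposited a table of log2 values per probe set; the submitters' processing notes name RMA and MAS5 with neither version nor role, and further steps stay unstated. The table is treated as normalized. Control probe sets (64) were left out. Of 22626 probe sets, 20380 have 1 symbol in the platform annotation, a table that may be dated, 691 have several and 1555 are unnamed here. limma 3.58.1 (lmFit and eBayes, two-sided) in R 4.3.3 was fitted to the 8 gastrocnemius arrays, to the 15 calf arrays with 3 group means, and to all 23 arrays for differences of effects. Within-array differences were tested by exact permutation (scipy 1.17.1, Python 3.11.15). Precision is limited by how many arrays there are: over the tested probe sets, a log2 difference of groups had a median SE of 0.09. For a difference of effects it was 0.14. The SEs of Hspa1b were larger, as given with its results. No batch or scan date is given in the sources used here. The fit was tested on simulated data. The members and gene lists were chosen with earlier results of these data known. Named genes are all members, up to 3 called genes per list and comparison, and the 4 genes most like Hspa1b in each experiment. The planned Hsp90aa1 minus Hsp90ab1 tests could not be run without a named Hsp90ab1 probe set. Alternatives were other filters, gene summaries, normalizations, variance models, sets of arrays and thresholds, and leaving out each array in turn.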

Additional observations from a re-analysis of the deposited data

Results flagged for a closer look

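In 8 of the 100 combinations of probe set and group, 1 sample lay far from the rest of its group, where chance alone gives about 1 in 20. Hspa8 accounted for 5 of the 8. Suspension replicate 8 had a log2 value of 10.13 on 1420623_x_at of Hspa8, with the next lowest array of its group at 11.07, and of 8.34 on 1451177_at of Dnajb4, with the next at 8.86. Spaceflight replicate 8 was lowest on 1420623_x_at of Hspa8 at 11.25, with the next at 11.42. Ground AEM replicate 2 was highest on 1420622_a_at of Hspa8 at 9.68. On 1431182_at of Hspa8, which lies below the filter, ground AEM replicate 1 was highest at 5.83 and suspension replicate 9 was highest at 5.39. Control replicate 2 was highest on 1427126_at of Hspa1b at 5.76, and control replicate 19 on 1438902_a_at of Hsp90aa1 at 7.87.

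For 9 probe sets the effect of flight differed from that of reloading relative to control (limma, adjusted p under 0.05). Among them, 1427126_at of Hspa1b passed the filter through the reloaded arrays and had to differ, so its call adds no support. The differences of the effects were -2.64 for Hspa1a (1452388_at), -3.07, -2.53 and -3.41 for Hspa1b (1427127_x_at, 1452318_a_at and 1427126_at) and -0.56 for Dnajb1 (1416755_at). They were -0.68 and -0.62 for Dnajb4 (1451177_at and 1431734_a_at) and -0.65 and -0.62 for Dnaja4 (1418591_at and 1418592_at). Of these calls, those of Dnajb4 ended in 15 and 14 of the 18 fits that left out 1 array, that of Dnajb1 in 10 and that of 1418592_at of Dnaja4 in 6.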

How the results depend on the processing

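The number of chaperone probe sets called in spaceflight versus ground AEM was 0 in place of 1 with a filter at the 60th percentile, with 1 probe set per gene, with probe sets averaged per gene and at an adjusted p under 0.01, and 0 to 2 when 1 array was left out. For reloaded versus suspension it was 11, 9 to 12 with 1 array left out, and 5 of 8 genes with 1 probe set per gene or with averaging. For reloaded versus control it was 5, 4 to 5 with 1 array left out, 3 genes with 1 probe set per gene and 2 with averaging. For the flight effect minus the reloaded-versus-control effect it was 9, 5 to 12 with 1 array left out, 4 genes with 1 probe set per gene, 5 with averaging, 4 at an adjusted p under 0.01 and 5 with spaceflight and ground AEM exchanged. It was 0 for suspension versus control under every alternative run. For the flight effect minus the suspension effect it was 0, and 4 with that exchange, which was chosen after seeing the data. Hspa1b minus Hspa8 shifted by 2.32 to 2.70 in reloaded versus suspension, by 2.42 to 2.80 in reloaded versus control and by -0.577 to -0.190 in spaceflight versus ground AEM with 1 array left out. In suspension versus control it ran from -0.0868 (without suspension replicate 8) to 0.211, and was -0.0695 with averaging and -0.00729 with quantile normalization. Of 1300 values for single probe sets, in which the fits that left out 1 array enter by their lowest and highest value only, 1235 kept sign and call, 27 lost a call, 15 gained one and 23 changed sign. The last were all small and uncalled. Counted fit by fit, 74 of 330 calls ended when 1 array was left out, and 18 of the 26 calls ended in no such fit. In spaceflight versus ground AEM, leaving out 1 array gave -0.0737 to 0.00442 for Hsph1 on 1425993_a_at (0.00500 with averaging), -0.0281 to 0.144 for Hsph1 on 1423566_a_at and -0.0631 to 0.0562 for Dnajb4 on 1451177_at. In suspension versus control, Hspa8 turned to 0.0195 (1455789_x_at) and 0.0545 (1420622_a_at) without suspension replicates 8 and 9, and Dnajb1 on 1416755_at ran from -0.0760 to 0.0115. In reloaded versus control, Hsph1 on 1425993_a_at ran from -0.0289 to 0.0496, with 0.000981 under quantile normalization and 0.0227 with array weights. For the flight effect minus the suspension effect the ranges were -0.0355 to 0.251 for Hspa1a, -0.258 to 0.0719 for Hspa1b on 1427127_x_at, -0.0970 to 0.0758 for Hsp90aa1 on 1438902_a_at (0.0183 with arrays centred on their median), -0.0105 to 0.1997 for Hsp90aa1 on 1426645_at (-0.00570 with array weights) and -0.0119 to 0.157 for Dnaja4 on 1418591_at. There Dnaja4 on 1418592_at ran from -0.0691 to 0.120, with -0.0152 under quantile normalization and -0.0267 with array weights, and Hspa8 on 1420622_a_at was -0.00715 with array weights. For the flight effect minus the reloaded-versus-control effect, Hsph1 on 1425993_a_at ran from -0.0911 to 0.00776 and was 0.0846 with averaging. The cause of these changes was not tested. No paired analysis was possible because the groups compared share no replicate numbers within an experiment. Over all 14849 probe sets, 945 were called in spaceflight versus ground AEM and 343 at an adjusted p under 0.01. The 50 of reloaded versus control became 134 with array weights, and the 56 of suspension versus control became 8 without suspension replicates 8 and 9.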
